A study of Mus musculus with 151 samples.

Results

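Glutamate release at the hair cell ribbon synapse was followed through 10 genes, *Slc17a8*, *Otof*, *Ctbp2*, *Bsn*, *Pclo*, *Rims2*, *Rimbp2*, *Nsf*, *Rab3a* and *Unc13b*. They were taken by symbol from the 55291 genes of the count table, as a fixed list of vesicle loading, otoferlin-driven release, and ribbon and active zone scaffold genes. The cells were 55 P14_WT IHCs, 46 P14_iOHCs and 50 P30_WT IHCs, each sequenced alone by the Smart-seq method, which amplifies cDNA along the full transcript. P14 and P30 are postnatal days 14 and 30, IHCs are inner hair cells, and iOHCs are the outer hair cell (OHC)-like cells that arise from IHCs when *Tbx2* is deleted.

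All mice were C57BL/6. Both WT groups carried vGlut3-P2A-iCreER/+ and Ai9/+. The P14_iOHCs came from mice that carried vGlut3-P2A-iCreER/+, Tbx2 flox/- and Ai9/+. The Cre driver is a knock-in at *Slc17a8* itself, the vGlut3 locus, so the cells of every group carry 1 modified copy of the first of the 10 genes. Tamoxifen, which switches the Cre on, was given on days 2 and 3 to the mice of the P30 group, and the days are not stated separately for the mice picked at P14. Tdtomato+ cells were picked by hand. The iOHCs were chosen from the larger IHCs of the same mice by their smaller size, so cells that kept an IHC shape were left out. The labels name no mouse. Each group is therefore treated as 1 sample of many cells, no p-value is given, and every SD is the spread over cells.

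At a ribbon synapse, glutamate is loaded into vesicles by the transporter VGLUT3, vesicles are tethered at a presynaptic ribbon, and calcium drives their fusion through otoferlin. IHCs use this synapse to pass sound signals to the auditory nerve. OHCs work mainly as amplifiers of vibration and have few afferent contacts. The ribbon is built mostly of RIBEYE, a product of *Ctbp2*, and is anchored by bassoon, while RIM and RIM-binding proteins gather calcium channels at the active zone.

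Cells held between 4326416 and 25035444 counts. No cell had a total between 10267217 and 11814928, which left 51 cells in a lower and 100 in an upper set of totals, with cells of all groups in each. *Tbx2*, the deleted gene, had 260 ± 127 counts per 1000000 counts of the cell (CPM) in P14_WT IHCs (SD, n = 55 cells) and 69.3 ± 87.4 CPM in P14_iOHCs (SD, n = 46 cells). It was below the lowest P14_WT IHC in 27 of 46 P14_iOHCs. A count over the whole gene does not show whether a cell lost the floxed exon. Hair cell markers were present in every group, with a summed median of 10682 CPM in P14_WT IHCs and 10631 CPM in P14_iOHCs. *Slc26a5*, which encodes the OHC motor prestin, had counts in 46 of 46 P14_iOHCs (142 to 2787 CPM) and in 2 of 55 P14_WT IHCs.

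Markers of other cells also differed between the groups. Over all genes tested, 12.8% were over 2-fold lower and 18.9% over 2-fold higher in P14_iOHCs. All 15 tested genes of an 18-gene supporting cell list were over 2-fold higher in P14_iOHCs. The summed level of the list ranged from 0 to 2796 CPM (median 33.3) in P14_WT IHCs and from 0 to 12020 CPM (median 1022) in P14_iOHCs. *Prox1* of that list was at 0 in both groups. The mean log2(CPM + 1) of the list was above every P14_WT IHC in 19 of 46 P14_iOHCs. Of the 11 neuron markers, 3 of the 5 tested were over 2-fold lower in P14_iOHCs, the summed range was 121 to 755 CPM in P14_WT IHCs and 6.70 to 625 CPM in P14_iOHCs, and *Gap43* was at 0 in both. Of 7 glia markers, 4 of 5 tested were over 2-fold higher in P14_iOHCs, some of which are also in the supporting cell list, and the summed range was 0 to 224 CPM in P14_WT IHCs and 0 to 366 CPM in P14_iOHCs. Between the WT groups only 14 supporting cell and 3 glia genes had enough counts to be tested. Some of the higher genes of these lists thus entered only with counts of P14_iOHCs. Summed blood and immune markers reached 257 and 118 CPM in P14_WT IHCs and 496 and 67.2 CPM in P14_iOHCs. The part of other cells' RNA in the results was not tested, apart from the values given beside them.

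In P14_iOHCs, the transporter and the fusion protein of the IHC synapse were far lower, and so was 1 large scaffold gene, while the ribbon gene *Ctbp2*, the giant scaffold genes *Bsn* and *Pclo* and the fusion ATPase gene *Nsf* differed by less than the spread between cells. In the fitted comparison, 3 of the 10 genes were over 4-fold lower (*Slc17a8*, *Otof* and *Rims2*), against 5.03% of the 13673 genes tested. The 10 genes were chosen with earlier results of these data known. The original work had reported *Slc17a8* and *Otof* as lower in the same cells, so this contrast is a description and no independent support. *Unc13b* was over 4-fold higher, as were 8.90% of all genes, but it passed the filter on counts only through P14_iOHCs, so its count supports nothing. It was not past 4-fold with the supporting cell score as a covariate and was not tested with edgeR's filterByExpr, in the lower set of totals or without the 19 P14_iOHCs of high supporting cell score. The 4-fold limit is the one of the original work. At a 2-fold limit, *Rimbp2* joined the lower genes, with 4 of 10 genes lower against 12.8% of all genes, and the higher count stayed at 1 against 18.9%. The median log2 fold change of the 10 genes was -0.30, and that of all genes tested was 0.11. The fold changes below come from edgeR fits on the counts of single cells and carry no interval, since the spread between mice is not known.

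**Figure D1:**
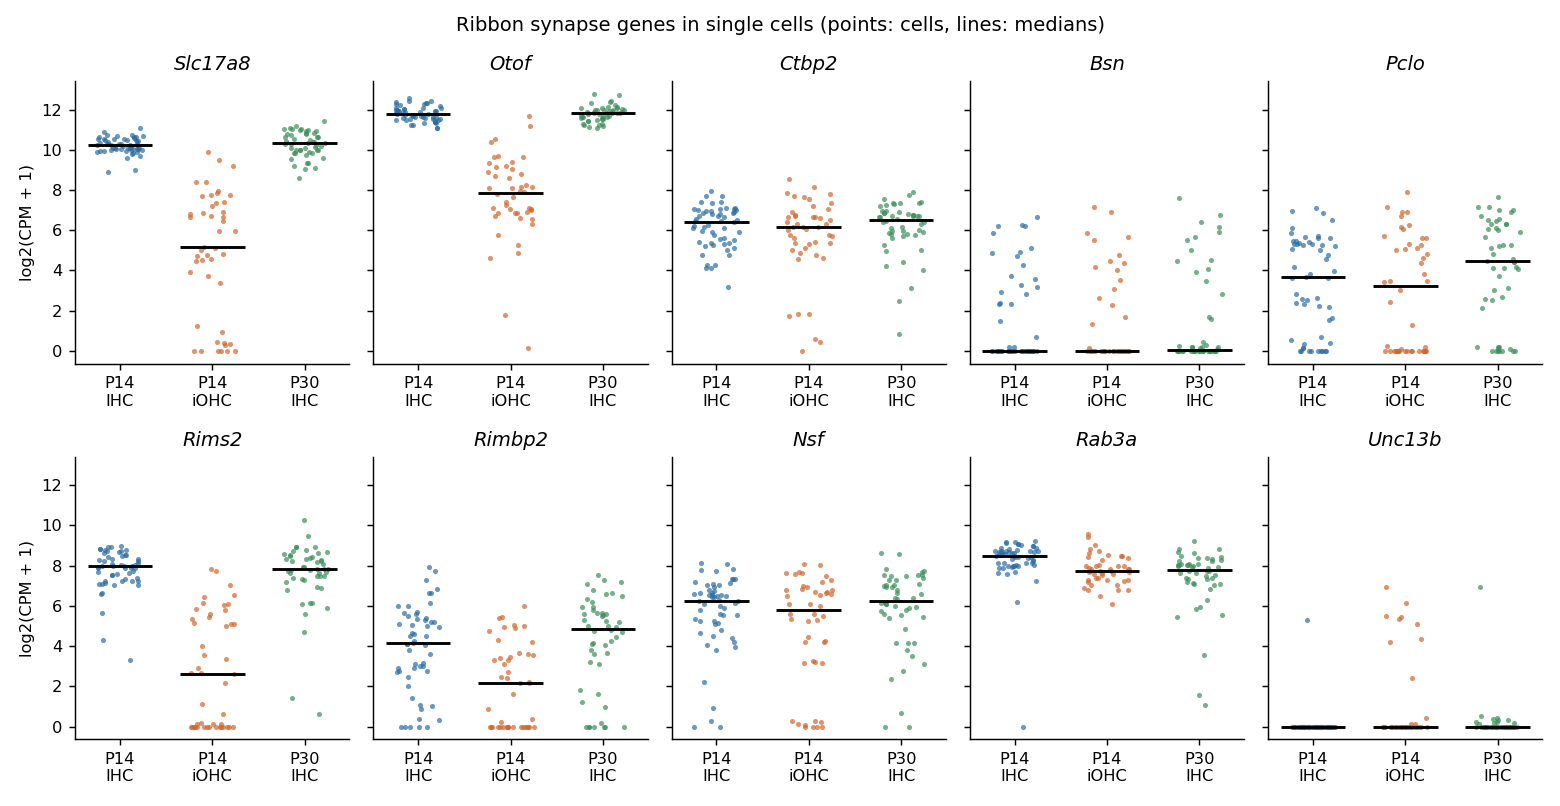
Level of each of the 10 genes as log2(CPM + 1) on the vertical axis, in P14_WT IHCs (n = 55 cells), P14_iOHCs (n = 46) and P30_WT IHCs (n = 50); points are cells and black lines medians. *Slc17a8*, *Otof* and *Rims2* are spread far below both IHC groups in P14_iOHCs, *Ctbp2* and *Nsf* are not, and *Unc13b* is at 0 in most cells.

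*Slc17a8* (ENSMUSG00000019935.16, GRCm38 chromosome 10, 89574020 to 89621253, minus strand, 13 merged exons) encodes VGLUT3, which fills synaptic vesicles with glutamate. Its lowest, median and highest levels were 470, 1191 and 2138 CPM in P14_WT IHCs and 0, 34.6 and 935 CPM in P14_iOHCs. All 46 P14_iOHCs were below the median P14_WT IHC, and 43 were below the lowest. The mean was 1230 ± 317 CPM (SD, n = 55 cells) against 123 ± 194 CPM (SD, n = 46 cells), a log2 fold change of -3.33. Pooled over cells, 1215 CPM (95% exact Poisson interval 1213 to 1218) stood against 114 CPM (113 to 115), where the intervals cover the counting of reads only. The P14_iOHCs did not form 1 low level. In 6 of them no *Slc17a8* read was counted, 11 were under 1 CPM and 17 were over 100 CPM. The gene had counts in 87.0% of P14_iOHCs (95% exact Clopper-Pearson interval 73.7% to 95.1%). Within the lower and the upper set of total counts the log2 fold change was -2.77 and -3.61.

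The stretch before the start of *Slc17a8* is shown because this gene was among the 3 over 4-fold lower and carries the Cre driver. It spans 250 bases before the RefSeq start, at chr10:89621250-89621499 of GRCm38.p6 (RefSeq, minus strand) and is written 5′ to 3′. T-box factors, the family of *Tbx2*, bind sites built around the letters GGTGTGA. On either strand that motif was in none of the 11 windows of 250 bases found for 8 of the 10 genes (all but *Otof* and *Rims2*), and in 3.33% of 32851 windows of all genes. The shorter GGTGTG, searched after the longer motif had been, was in 1 of the 11 windows, this one, and in 16.3% of all windows. It is in capitals and starts 155 bases before the transcript start. A match of letters does not show that a factor binds there.
Slc17a8: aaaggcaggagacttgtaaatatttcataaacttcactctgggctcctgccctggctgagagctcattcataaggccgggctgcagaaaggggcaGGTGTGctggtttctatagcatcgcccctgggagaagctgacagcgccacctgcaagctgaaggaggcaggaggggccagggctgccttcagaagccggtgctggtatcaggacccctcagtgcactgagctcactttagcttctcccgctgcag

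*Otof* (ENSMUSG00000062372.13, chromosome 5, 30367062 to 30461932, minus strand, 48 merged exons) encodes otoferlin, the calcium sensor that IHCs need for vesicle fusion and refilling. It had 2168, 3469 and 6115 CPM as its lowest, median and highest level in P14_WT IHCs and 0.104, 232 and 3235 CPM in P14_iOHCs. In 44 of 46 P14_iOHCs it was below the lowest P14_WT IHC. The mean was 3657 ± 925 CPM (SD, n = 55 cells) against 430 ± 608 CPM (SD, n = 46 cells), a log2 fold change of -3.12. Unlike *Slc17a8*, it was counted in all 46 P14_iOHCs, and only 1 cell was under 1 CPM while 37 were over 100 CPM. The log2 fold change was -3.42 in the lower set of total counts and -2.99 in the upper set. By this fit the *Otof* RNA was reduced about as much as that of *Slc17a8*, and it was still present. By medians *Slc17a8* was the more reduced, with a P14_iOHC to P14_WT IHC ratio of 0.029 against 0.067 for *Otof*.

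Tail-anchored proteins such as otoferlin are inserted through the GET pathway, and of the list of this pathway and the ferlin relatives, 10 of 13 genes had a row and 7 were tested. None of the 7 was over 2-fold lower, 1 was over 2-fold higher (*Dysf*, dysferlin, log2 fold change 1.64, named after its value was seen), and the median was 0.18. Over all genes 12.8% were lower and 18.9% higher at that limit, so these counts do not set the list apart. Between the WT groups only 6 genes of the list were tested, so not all of the 7 passed the filter on counts without P14_iOHCs.

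Of the ribbon and active zone genes, only some were lower. *Rims2* (ENSMUSG00000037386.16, chromosome 15, 39198261 to 39684372, plus strand, 37 merged exons) encodes RIM2, which ties calcium channels and primed vesicles to the active zone. Its lowest, median and highest levels were 8.92, 248 and 505 CPM in P14_WT IHCs and 0, 5.18 and 223 CPM in P14_iOHCs. All 46 P14_iOHCs were below the median P14_WT IHC, and 26 were below the lowest. The mean was 258 ± 125 CPM (SD, n = 55 cells) against 30.0 ± 51 CPM (SD, n = 46 cells), a log2 fold change of -3.11, and it was -3.89 and -2.86 in the lower and upper set of totals. It had counts in 31 of 46 P14_iOHCs (67.4%, exact interval 52% to 80.5%) and in all 55 P14_WT IHCs. With every cell thinned to 4000000 counts, the share in P14_iOHCs was 58.7%.

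*Rimbp2* (ENSMUSG00000029420.12, chromosome 5, 128757791 to 128953486, minus strand) encodes a RIM-binding protein that links RIM to calcium channels. It was lower but overlapped. The lowest, median and highest levels were 0, 16.6 and 247 CPM in P14_WT IHCs and 0, 3.52 and 63.2 CPM in P14_iOHCs. All P14_iOHCs lay within the range of P14_WT IHCs, and 36 of 46 were below their median. The mean was 34.6 ± 49.9 CPM (SD, n = 55 cells) against 9.53 ± 14.4 CPM (SD, n = 46 cells), a log2 fold change of -1.87. The spread over P14_WT IHCs was larger than the difference of the means. It was counted in 28 of 46 P14_iOHCs (60.9%, exact interval 45.4% to 74.9%) and in 50 of 55 P14_WT IHCs, and in 58.7% and 89.1% of them after thinning. Without the 19 P14_iOHCs of high supporting cell score the log2 fold change was -1.35.

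*Ctbp2* (ENSMUSG00000030970.16, chromosome 7, 132987563 to 133124354, minus strand) differed little. It had 7.95, 84.5 and 249 CPM as its lowest, median and highest level in P14_WT IHCs and 0, 70.3 and 377 CPM in P14_iOHCs. In P14_iOHCs 38 of 46 cells were within the range of P14_WT IHCs, 6 were below and 2 above it. The means were 87.5 ± 54.2 CPM (SD, n = 55 cells) and 88.7 ± 80.8 CPM (SD, n = 46 cells), with a log2 fold change of -0.02. The sign of that value turned in 9 of 17 alternative fits, between -0.66 and 0.36.

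The count of *Ctbp2* sums the ribbon protein RIBEYE and the nuclear corepressor CtBP2, which share most of their exons and start at different places. In GENCODE M21 the long form (Ctbp2-214) has 2964 coding bases and starts at position 133015248, and the shorter forms have 1335 and 1260 coding bases and start at 133123367 and 133123166. Which form the reads came from was not tested. The RNA level also does not give the number of ribbons. The original work counted Ctbp2+ puncta as ribbon synapses at a later age. It reported fewer of them in iOHCs than in WT IHCs, and more than in WT OHCs. The 250 bases before the RefSeq start of the long form, at chr7:133015248-133015497 of GRCm38.p6 (RefSeq, minus strand, 5′ to 3′), are shown because they lie before the start of the form with the long ribbon domain. They hold neither motif, so no letter is in capitals.
Ctbp2: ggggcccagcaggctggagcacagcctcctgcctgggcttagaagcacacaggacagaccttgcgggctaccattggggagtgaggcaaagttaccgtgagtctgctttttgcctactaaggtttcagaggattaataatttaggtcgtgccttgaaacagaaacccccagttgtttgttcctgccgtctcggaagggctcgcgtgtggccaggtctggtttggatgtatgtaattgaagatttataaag

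*Bsn* (ENSMUSG00000032589.14, chromosome 9, 108096022 to 108190384) and *Pclo* (ENSMUSG00000061601.15, chromosome 5, 14514918 to 14863459) encode bassoon and piccolo, giant scaffold proteins of the active zone. *Bsn* was seen in a minority of cells, 23 of 55 P14_WT IHCs (41.8%, exact interval 28.7% to 55.9%) and 17 of 46 P14_iOHCs (37.0%, 23.2% to 52.5%). Its mean was 10.5 ± 22.6 CPM (SD, n = 55 cells) against 11.8 ± 28.9 CPM (SD, n = 46 cells), and the log2 fold change was 0.16. *Pclo* ranged from 0 to 138 CPM (median 11.9) in P14_WT IHCs and from 0 to 237 CPM (median 8.51) in P14_iOHCs. The log2 fold change of *Pclo* was 0.34, although fewer P14_iOHCs had a count (29 of 46, 63.0%, exact interval 47.5% to 76.8%) than P14_WT IHCs (46 of 55, 83.6%, 71.2% to 92.2%), and after thinning the shares were 58.7% and 80.0%. Its sign turned in 4 of 17 alternative fits, which ran from -1.40 to 1.70. For both genes the difference of the means was smaller than the SD over cells. That is a description and sets no limit of detection. The merged exons of the 2 genes span 15938 and 22457 bases, and *Pclo* shares 4.12% of its exonic bases with antisense genes.

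**Figure D2:**
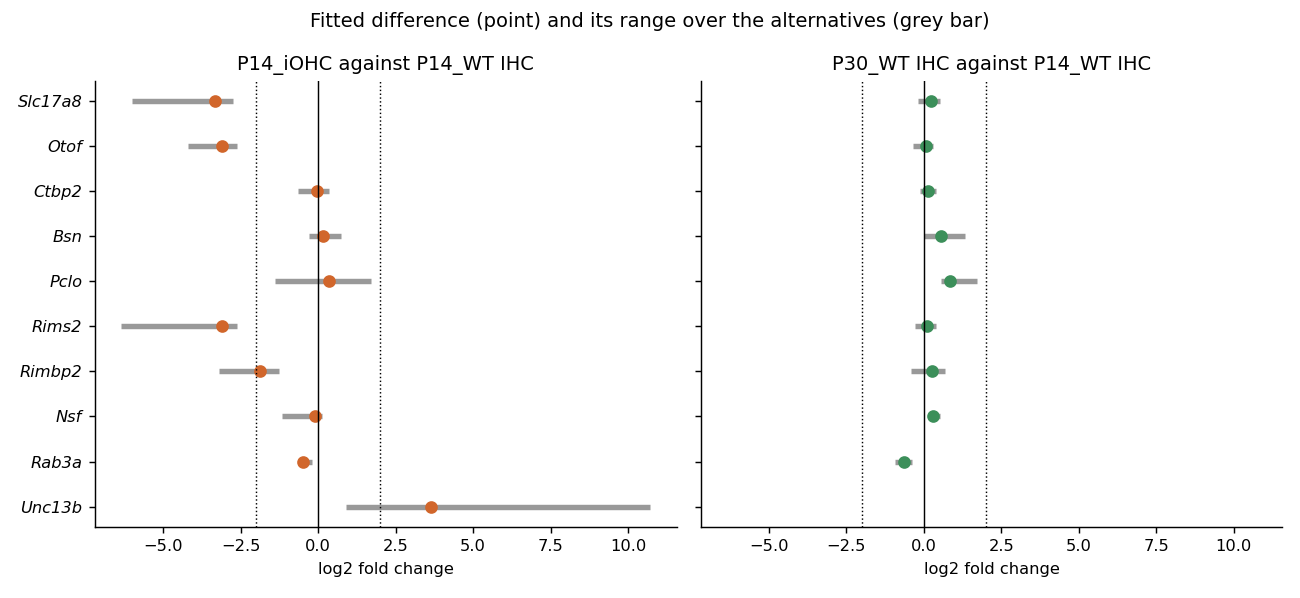
Fitted log2 fold change (horizontal axis) of each of the 10 genes in P14_iOHCs (left, orange) and P30_WT IHCs (right, green), both against the same P14_WT IHCs; grey bars span the alternative fits and dotted lines mark 4-fold. *Slc17a8*, *Otof* and *Rims2* stay past 4-fold in P14_iOHCs along the whole bar, and no gene reaches it at P30, where *Unc13b* was not fitted.

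The fusion and docking genes gave small differences. *Nsf* (ENSMUSG00000034187.18, chromosome 11, 103821782 to 103954056) encodes the ATPase that takes spent SNARE complexes apart. It had 0, 75.2 and 277 CPM as its lowest, median and highest level in P14_WT IHCs and 0, 55 and 269 CPM in P14_iOHCs. All 46 P14_iOHCs were inside the range of P14_WT IHCs. The log2 fold change was -0.10, and it ran from -1.16 with limma on log2(CPM + 0.1) to 0.11 with the supporting cell score as a covariate. At least 5 counts were found in 80.4% of P14_iOHCs and 94.5% of P14_WT IHCs.

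*Rab3a* (ENSMUSG00000031840.12, chromosome 8, 70754679 to 70758677) encodes a small GTPase on synaptic vesicles. Its lowest, median and highest levels were 0, 359 and 591 CPM in P14_WT IHCs and 66.2, 215 and 753 CPM in P14_iOHCs. The level was below the P14_WT IHC median in 39 of 46 P14_iOHCs, while 44 of the 46 stayed inside the P14_WT IHC range. The mean was 357 ± 128 CPM (SD, n = 55 cells) against 250 ± 144 CPM (SD, n = 46 cells), a log2 fold change of -0.50. This difference was smaller than 1 SD between cells and had the same sign in all 17 alternative fits. It shrank to -0.25 without the 19 P14_iOHCs of high supporting cell score.

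*Unc13b* (ENSMUSG00000028456.18, chromosome 4, 43058953 to 43264871) encodes Munc13-2, a priming factor. It was counted in 1 of 55 P14_WT IHCs (1.82%, exact interval 0.0460% to 9.72%) and in 12 of 46 P14_iOHCs (26.1%, 14.3% to 41.1%). The highest level was 38.9 CPM in P14_WT IHCs and 124 CPM in P14_iOHCs, and the fitted log2 fold change was 3.64. The gene entered the fit only through P14_iOHCs, of which 10 had at least 5 counts. All 12 P14_iOHCs with a count were in the upper set of totals, and the 1 P14_WT IHC was in the lower set. After thinning, 23.9% of P14_iOHCs and 1.82% of P14_WT IHCs had a count. The gene was counted in 8 of the 19 P14_iOHCs (42.1%) whose supporting cell score was above every P14_WT IHC and in 4 of the other 27 (14.8%). Without those 19 cells it did not pass the filter on counts, and with the score as a covariate the log2 fold change was 1.68. The part of supporting cell RNA in this difference was not tested.

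*Slc17a8*, *Otof* and *Rims2* stayed over 4-fold lower without the same 19 cells. Over the other 27 P14_iOHCs the fitted log2 fold change was -2.76 for *Slc17a8*, -2.66 for *Otof* and -2.83 for *Rims2*. The levels of these cells were 181 ± 232 CPM for *Slc17a8* (SD, n = 27 cells) and 593 ± 743 CPM for *Otof*, against 40.2 ± 62.6 CPM and 198 ± 172 CPM in the 19 cells with a high score (SD, n = 19 cells). *Rims2* was at 36.7 ± 63.1 CPM and 20.6 ± 24.2 CPM in the same cells. These 27 cells are those whose score did not exceed the highest P14_WT IHC, and they can still hold supporting cell reads.

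The genes were next compared with each other, per length, as transcripts per 1000000 (TPM). In P14_WT IHCs the order was *Otof* (1122 ± 266 TPM), *Slc17a8* (638 ± 173 TPM), *Rab3a* (391 ± 140 TPM), *Rims2* (60.6 ± 29 TPM), *Ctbp2* (33.9 ± 20.6 TPM), *Nsf* (24.5 ± 19.5 TPM), *Rimbp2* (10.3 ± 14.3 TPM), *Pclo* (2.83 ± 3.60 TPM), *Bsn* (1.66 ± 3.59 TPM) and *Unc13b* (0.0774 ± 0.574 TPM), each as mean ± SD over 55 cells. From *Rims2* down, neighbours in this order lay within 1 SD of each other. *Otof* was above *Slc17a8* in all 55 cells.

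In P14_iOHCs *Rab3a* stood first with 245 ± 133 TPM (SD, n = 46 cells), above *Otof* in 84.8% of cells. *Otof* (124 ± 193 TPM) and *Slc17a8* (58.5 ± 99.9 TPM) followed, then *Ctbp2* (31.3 ± 27.9 TPM), *Nsf* (20.4 ± 20.2 TPM) and *Rims2* (6.61 ± 11.7 TPM). *Rims2* had moved below *Ctbp2* and *Nsf*, and every neighbouring pair in this order lay within 1 SD. The order at P30 was the same as at P14 in the WT IHCs.

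**Figure D3:**
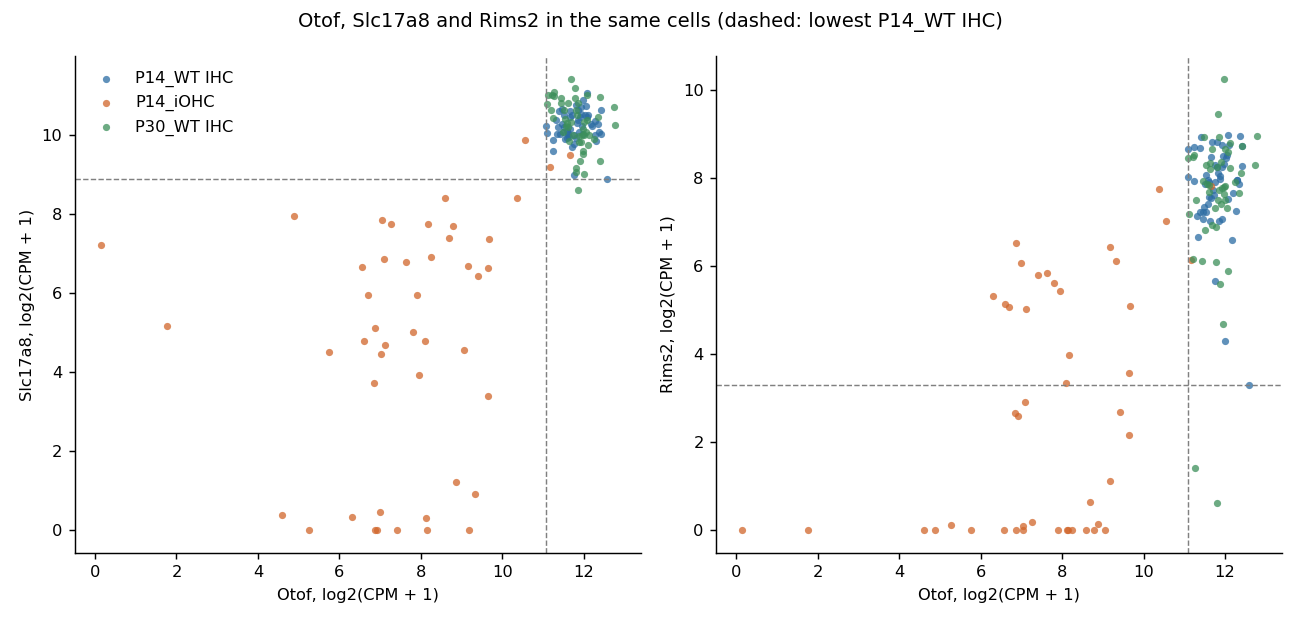
*Slc17a8* (left) and *Rims2* (right) against *Otof* in the same cells, all as log2(CPM + 1); dashed lines mark the lowest P14_WT IHC. P14_iOHCs (orange, n = 46) lie almost all below both lines on the left, with 2 cells at IHC level in both genes.

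The 3 lower genes were also counted together in each cell. Of the 46 P14_iOHCs, 26 were below the lowest P14_WT IHC in all 3 genes, 17 in 2 genes, 1 in 1 gene and 2 in none. Among P30_WT IHCs, 47 of 50 were below it in none and 3 in 1 gene. The 2 P14_iOHCs at IHC level in *Otof* were also at IHC level in *Slc17a8* and *Rims2*. In the 6 P14_iOHCs with no *Slc17a8* read, *Otof* was counted in all 6 (37.4 to 582 CPM) and *Rims2* in 5.

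Within P14_iOHCs the genes were only loosely related. Over the 45 pairs of the 10 genes, Spearman's rho in log2(CPM + 1) ran from -0.28 to 0.39 with a median of 0.06 (n = 46 cells, which share picking, amplification and depth). The highest was *Otof* with *Rims2* (Pearson's r 0.43, rho 0.39), with r of 0.39 without the 2 farthest cells and 0.54 and 0.35 in the lower and upper set of totals. *Slc17a8* and *Otof* had r of 0.23 and rho of 0.33. *Rims2* and *Tbx2* had r of 0.35 and rho of 0.32, while *Slc17a8* and *Otof* were both at r of 0.06 with *Tbx2*. These values over all cells do not show the cells at the top. The 3 P14_iOHCs at IHC level in *Slc17a8* (586, 935 and 722 CPM) had 268, 264 and 427 CPM of *Tbx2*. Those were the highest *Tbx2* levels among P14_iOHCs, seen after the values were known, and a link was not tested. These are descriptions of 1 set of cells, and weak values in sparse counts are not read further.

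The genes most like *Otof* across the 46 P14_iOHCs, out of 13663 genes, were *Gm9195* (rho 0.69), *Frg1* (0.62), *Prkra* (0.60), *Pgm2l1* (0.58) and *Gm36684* (0.57). Of the 10 synapse genes, *Rims2* ranked 124 and *Slc17a8* 290 in that order. The 95% span over all genes was -0.36 to 0.32.

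Other genes of the presynapse were grouped by role in 6 fixed lists. Vesicle loading also needs the proton pump of the vesicle. None of the 18 tested genes of that list was over 2-fold lower or higher in P14_iOHCs, against 12.8% lower and 18.9% higher over all genes. The list median log2 fold change was -0.29. The pump subunit genes *Atp6v0c* (-0.82) and *Atp6v0b* (-0.62) were the named lower ones and *Atp6v1f* (0.55) the named higher one. No pump gene thus differed as much as *Slc17a8*.

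The other vesicular glutamate transporters were rarely counted. *Slc17a7* (VGLUT1) was counted in 0 of 46 P14_iOHCs, which allows a share of up to 6.52%. *Slc17a6* (VGLUT2) was counted in 4 P14_iOHCs and had a mean of 2.16 TPM, 3.56% of the transporter family sum of 60.7 ± 99.2 TPM (SD, n = 46 cells). In P14_WT IHCs the family sum was 638 ± 173 TPM (SD, n = 55 cells), of which *Slc17a8* made up 100.0%.

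**Figure D4:**
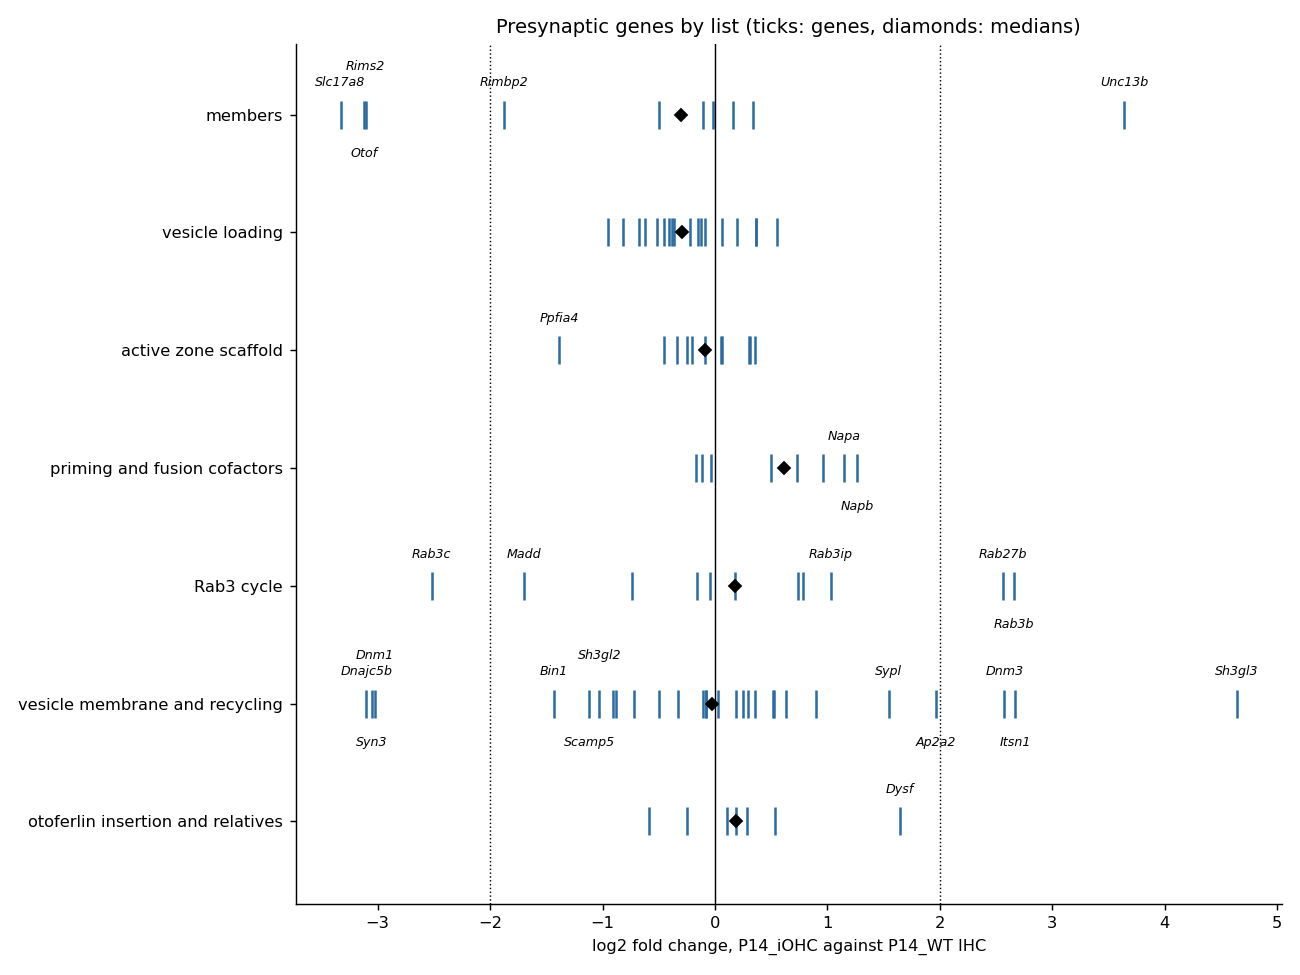
Fitted log2 fold change in P14_iOHCs against P14_WT IHCs (horizontal axis) of every tested gene, by list; ticks are genes, diamonds list medians, and dotted lines mark 4-fold. Vesicle loading, other scaffold genes and the otoferlin insertion list lie near 0, and the vesicle membrane and recycling list has genes past 4-fold on both sides.

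Among 14 further active zone scaffold genes, 11 were tested, of which 1 was over 2-fold lower and 0 higher. Over all genes 12.8% were lower and 18.9% higher at that limit, and with so few genes these counts do not set the list apart. The lower gene was *Ppfia4* (liprin-alpha 4), at 86.6 ± 79.6 CPM in P14_WT IHCs (SD, n = 55 cells) and 33.1 ± 46.3 CPM in P14_iOHCs (SD, n = 46 cells), a log2 fold change of -1.38. The list median was -0.09. The make-up of the RIM family differed. *Rims2* made up 70.2% of the RIM sum of 86.3 ± 35 TPM in P14_WT IHCs (SD, n = 55 cells) and 18.9% of 34.9 ± 25.9 TPM in P14_iOHCs (SD, n = 46 cells), where *Rims3*, the short RIM3 gamma form, made up 81.1%. *Rims3* itself was at 83.3 ± 57.6 CPM and 103 ± 92.1 CPM in the same groups, with a log2 fold change of 0.36. *Rims1* was counted in 2 P14_WT IHCs and 0 of 46 P14_iOHCs, with the same limit as *Slc17a7*. *Ctbp1* was similar in both groups (log2 fold change 0.07).

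In priming and fusion, 8 of 17 listed genes were tested, none was over 2-fold lower, and 2 were over 2-fold higher, with a list median of 0.62. Over all genes 12.8% were lower and 18.9% higher at that limit, and with so few genes these counts do not set the list apart. *Napa* encodes alpha-SNAP, the partner of NSF, and was at 229 ± 136 CPM in P14_WT IHCs (SD, n = 55 cells) and 493 ± 281 CPM in P14_iOHCs (SD, n = 46 cells), a log2 fold change of 1.15. The other was its relative *Napb* (1.27, named after its value was seen). *Unc13a* (Munc13-1) was low in both groups, with 11.6 ± 16.7 CPM and 10.4 ± 20.0 CPM, and *Unc13c* was counted in 1 P14_WT IHC and 0 of 46 P14_iOHCs, again with that limit. *Unc13d* was at 2.59 ± 8.55 CPM and 2.22 ± 5.34 CPM.

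Of 11 tested genes of the Rab3 cycle, 2 were over 2-fold lower and 3 over 2-fold higher, with a list median of 0.18. These counts are near the shares over all genes, 12.8% lower and 18.9% higher. Between the WT groups only 8 genes of the list were tested, so some of the 11 passed the filter on counts only with P14_iOHCs. The higher genes can be among them, and their count is not read further. *Madd*, which encodes an exchange factor that loads Rab3 with GTP, was at 585 ± 267 CPM in P14_WT IHCs (SD, n = 55 cells) and 179 ± 129 CPM in P14_iOHCs (SD, n = 46 cells), a log2 fold change of -1.70. *Rab3ip* was higher, with 324 ± 169 CPM and 651 ± 339 CPM and a log2 fold change of 1.03. Of the paralogues, *Rab3c* was lower (-2.52) and *Rab3b* higher (2.66), yet *Rab3a* made up 97.4% of the Rab3 family sum in TPM in P14_WT IHCs and 94.5% in P14_iOHCs. *Rab27b* (2.56, named after its value was seen) was the third higher gene, and *Rab3d* differed by 0.78.

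Of 28 tested genes of vesicle membrane and recycling, 3 were over 4-fold lower and 3 over 4-fold higher, with 6 and 5 past 2-fold and a median of -0.03. Over all genes, 5.03% were lower and 8.90% higher past 4-fold, and 12.8% were lower and 18.9% higher past 2-fold. The higher counts were near these shares. *Dnm1*, the neuronal dynamin that pinches off endocytic vesicles, was at 755 ± 334 CPM in P14_WT IHCs (SD, n = 55 cells) and 94.2 ± 104 CPM in P14_iOHCs (SD, n = 46 cells), a log2 fold change of -3.02. *Dnajc5b*, a cysteine string protein gene, was at 675 ± 257 CPM and 82.0 ± 170 CPM, a log2 fold change of -3.10. *Syn3* was the third lower gene (-3.05, named after its value was seen).

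On the higher side, *Sh3gl3*, which encodes endophilin A3, was at 22.1 ± 35.2 CPM in P14_WT IHCs and 531 ± 381 CPM in P14_iOHCs, a log2 fold change of 4.64. It was counted in 31 of 55 P14_WT IHCs and in all 46 P14_iOHCs. *Ap2a2*, an adaptor subunit of clathrin coats, was at 50.7 ± 42.7 CPM and 191 ± 120 CPM, a log2 fold change of 1.97. *Dnm3* (2.57) and *Itsn1* (2.67), both named after their values were seen, were the other 2 over 4-fold higher.

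**Figure D5:**
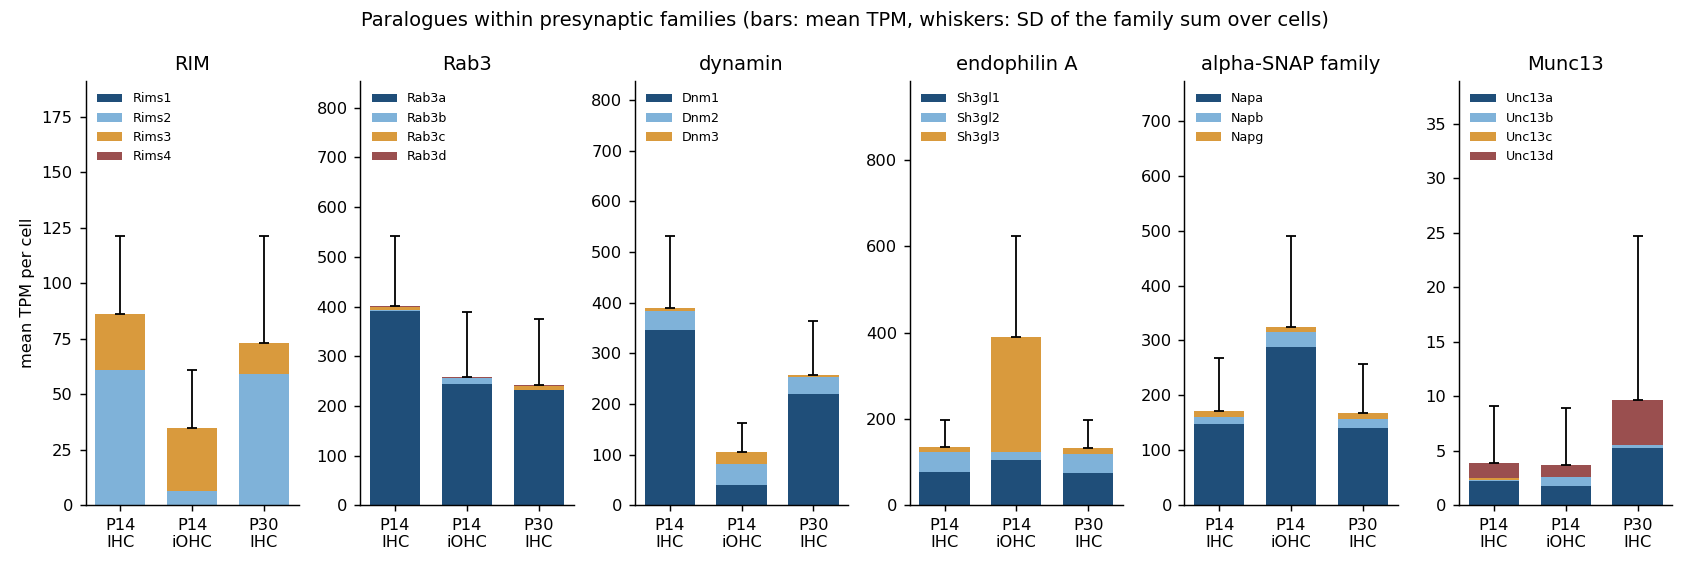
Mean TPM per cell of the paralogues in 6 presynaptic families, stacked, in P14_WT IHCs (n = 55 cells), P14_iOHCs (n = 46) and P30_WT IHCs (n = 50); whiskers are the SD of the family sum. In P14_iOHCs *Rims3* takes most of the RIM sum and *Sh3gl3* most of the endophilin A sum, while *Rab3a* and *Napa* keep their share.

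In the family sums, dynamins stood at 389 ± 143 TPM in P14_WT IHCs (SD, n = 55 cells) and 105 ± 57.6 TPM in P14_iOHCs (SD, n = 46 cells), and *Dnm1* made up 88.9% of the first and 37.9% of the second. Endophilin A genes were higher, at 136 ± 62.0 TPM and 391 ± 233 TPM, and *Sh3gl3* made up 9.33% and 68.2%. *Dnm2*, the form used by most cells, was similar (log2 fold change 0.25, named after its value was seen).

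Age gave small differences in the WT IHCs. Against the same P14_WT IHCs, none of the 9 tested genes was past 4-fold at P30, where 2.83% of 12946 genes were lower and 2.47% higher past that limit. None was past 2-fold either, where 9.42% were lower and 9.92% higher. Over all genes 367 were lower and 320 higher past 4-fold, but 285 and 462 with DESeq2 size factors, which raised the median log2 fold change of all genes from 0.04 to 0.29 and that of every one of the 9 genes. *Unc13b* did not pass the filter on counts. *Rab3a* was the 1 gene of the 9 with a lower value, at 223 ± 125 CPM at P30 (SD, n = 50 cells) and 357 ± 128 CPM at P14 (SD, n = 55 cells), with a log2 fold change of -0.63. At P30 45 of 50 cells were below the P14 median, and the value had the same sign in all 16 alternative fits.

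*Otof* was nearly equal at the 2 ages, with 3704 ± 1028 CPM at P30 (SD, n = 50 cells), a log2 fold change of 0.07, and 48 of 50 cells within the P14 range. *Slc17a8* was at 1344 ± 539 CPM at P30 (SD, n = 50 cells), with a log2 fold change of 0.22. For both genes the sign depended on the set of total counts. *Slc17a8* was higher at P30 in the lower set (log2 fold change 0.51) and lower in the upper set (-0.19). *Otof* showed the reverse, -0.33 in the lower and 0.30 in the upper set. Neither gene thus showed a direction with age that held within both sets.

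The same sets separated the P30 cells from each other. *Slc17a8* was at 1700 ± 509 CPM in the 23 P30_WT IHCs of the lower set (SD, n = 23 cells) and 1041 ± 348 CPM in the 27 of the upper set (SD, n = 27 cells). *Otof* was at 3175 ± 779 CPM and 4154 ± 1010 CPM in the same cells. Across all 50 cells *Slc17a8* and *Otof* had r of -0.33 and rho of -0.43, but r was -0.15 within the lower and 0.05 within the upper set, so the pooled relation did not hold within sets. What the sets stand for is not given in the sources used here.

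Of the scaffold genes at P30, *Pclo* had the highest log2 fold change, 0.84, with 25.8 ± 32.5 CPM at P14 (SD, n = 55 cells) and 42.9 ± 49.2 CPM at P30 (SD, n = 50 cells), a difference smaller than 1 SD. *Bsn* had a log2 fold change of 0.55, *Nsf* 0.31, *Rimbp2* 0.28, *Ctbp2* 0.13 and *Rims2* 0.12. *Unc13b* was counted in 11 of 50 P30_WT IHCs (22%, exact interval 11.5% to 36%), but in only 1 of them with at least 5 counts, and 43.5% of the lower and 3.70% of the upper set of totals had one. In the 6 presynaptic lists at P30, 18 vesicle loading, 11 scaffold, 8 priming and fusion, 8 Rab3 cycle, 29 membrane and recycling and 6 otoferlin list genes were tested. None of them was past 4-fold. Over all genes 9.42% were lower and 9.92% higher past 2-fold, so the genes named next do not set the lists apart. Past 2-fold, *Atp6v1g2* (-1.21), *Atp6v0a1* (-1.002), *Scamp5* (-1.32) and *Fer1l5* (-1.35) were lower and *Tspoap1* (1.24), *Unc13d* (1.77) and *Unc13a* (1.34) higher, of which all but the Munc13 genes were named after their values were seen. The Munc13 family sum was 3.88 ± 5.26 TPM at P14 (SD, n = 55 cells) and 9.65 ± 15.1 TPM at P30 (SD, n = 50 cells), a difference smaller than the SD at P30. The genes named by rule were *Atp6v0b* (-0.69), *Atp6v0c* (-0.47) and *Dnm1* (-0.57). *Rims3* was at 46.7 ± 59.0 CPM (log2 fold change -0.79), and *Rims2* made up 81.2% of the RIM sum in TPM.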

How the data were processed

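Single cells were picked and amplified with a Smart-Seq HT kit by the authors, and the library of each cell was sequenced with paired-end reads. The authors aligned reads to GRCm38 with HISAT2 2.1.0 and counted them per gene with HTSeq 0.10.0. Trimmomatic 0.39, FastQC 0.11.9 and StringTie 1.3.5 stand in the submitters' processing notes. The deposited values are raw counts, not normalized. The annotation release, strand setting and treatment of multiply aligned reads are not given in the sources used here.

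CPM is the count per 1000000 of the total of a cell. TPM used union exon lengths of GENCODE M21 (53292 genes). edgeR 4.0.16 (TMM, robust glmQLFit, two-sided glmQLFTest) in R 4.3.3 was fitted to the 2 groups compared, keeping genes that reached 5 counts in 10 or more cells, and was tested on simulated data. The labels name no mouse, so its p-values would describe cells of 1 sample per group and are not printed; a fold limit replaces the test of the plan. Adjusted p-values were used only to pick names: in each list the 2 genes per direction with the lowest value under 0.05, besides the 10 genes, their paralogues, *Tbx2* and the 5 genes most like *Otof*. Some genes that the rule picks are not reported here. Members, lists and rules were chosen with earlier results of these data known. Alternatives used DESeq2 1.42.0, limma 3.58.1, and other filters, scalings, covariates and cells. Python 3.11.15, numpy 2.4.6, pandas 2.3.3, scipy 1.17.1 and matplotlib 3.10.9 did the rest (seed 20220).

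The floor of 3 counts, used where none was seen, was 0.133 to 0.693 CPM in P14_WT IHCs and 0.131 to 0.495 CPM in P14_iOHCs. The Poisson intervals on pooled counts cover the counting of reads only. Reads carry no molecular identifiers, so several can be copies of the same molecule, and these intervals are then too narrow. The Clopper-Pearson intervals on shares cover the draw of cells within a group only. Neither kind covers the spread between mice. No 2 cells of a group had identical counts among 3745 pairs.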

Additional observations from a re-analysis of the deposited data

How the results depend on the processing

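Of the 17 alternatives to the fit of P14_iOHCs against P14_WT IHCs, every one left *Slc17a8*, *Otof* and *Rims2* over 4-fold lower, and between 3 and 5 genes were past that limit in either direction. The log2 fold change ran from -6.0 to -2.76 for *Slc17a8*, from -4.21 to -2.63 for *Otof* and from -6.35 to -2.61 for *Rims2*. *Rimbp2* was past 4-fold in 2 of 17. *Unc13b* was fitted in 14 and ran from 0.91 to 10.7, the last in the upper set of totals, where P14_WT IHCs were all at 0 and the value is no bound. No gene was past 4-fold in the 16 alternatives for P30. Signs turned for *Ctbp2* in 9, *Nsf* in 5, *Pclo* in 4 and *Bsn* in 3 of the P14_iOHC fits, and at P30 for *Ctbp2* in 5, *Rims2* in 4 and *Otof*, *Slc17a8* and *Rimbp2* in 1 each.

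The cell numbers in the labels were also used as a replicate block, which gave 5 genes past 4-fold in P14_iOHCs (4 lower, 1 higher) and 0 at P30. Cells with the same number did not deviate together (r from -0.03 to 0.03 over 46 pairs for P14_iOHCs, and from -0.03 to 0.05 over 50 pairs for P30_WT IHCs). No pairing by number was thus seen, and whether cells shared a day or a run was not tested. An unadjusted p in place of the adjusted p gives no value, since no p is used. The share of cells with a count moved past its interval only at the limit of 5 counts in P30_WT IHCs, to 32% for *Bsn* and 2.00% for *Unc13b*. Of all genes, 688 were lower and 1217 higher past 4-fold in P14_iOHCs, against 3790 and 4772 with no filter, 209 and 275 with filterByExpr, 435 and 379 with limma on log2(CPM + 1), 1074 and 915 with limma on log2(CPM + 0.1), 1452 and 1702 with the block, 1488 and 948 with the supporting cell score, 500 and 348 in the lower set of totals and 856 and 559 without the 19 cells. At P30, 367 and 320 compared with 3484 and 3009, 53 and 35, 204 and 35, 804 and 105 and 1278 and 331 under the first 5 of these, 565 and 413 with the set of totals as covariate and 751 and 616 in a fit of all 3 groups. Scaling by DESeq2 size factors moved the median of all genes from 0.11 to 0.20 in P14_iOHCs and from 0.04 to 0.29 at P30. *Bsn*, *Unc13b* and several paralogues were counted in few cells, and the number of mice, which is not known, limits every comparison.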
